A study of Mus musculus with 8 samples.

Results

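Ribosomal protein genes and the small nucleolar RNAs (snoRNAs) encoded in their introns were examined in small RNA-seq libraries of mouse heart. Members were chosen by name and by the authors' mean, the average over all libraries of read counts scaled for library size, termed the level here. Hosts were protein-coding genes with names that begin with Rps or Rpl and a number, or Rplp0 to Rplp2, and a level of at least 1. This gave 34 of 86 such genes. Guests were genes named Snord or Snora that lie inside any of the 86 and have a level of at least 1. This gave 14 of 33 such genes, out of 141 genes named Snord or Snora and 54531 features in the table. Because the level chose the members, levels are given as a description with no test.

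The libraries came from hearts of C57BL/6 mice at 24 weeks of age, 4 of the genotype RNase H1+/+ (wild type) and 4 of the genotype RNase H1-/- (knockout). The labels call the controls wild type, whereas the paper describes its control mice as L/L, with loxP-flanked alleles and no Cre. In the knockout, a Cre transgene driven by the promoter of muscle creatine kinase removes exon 2 of *Rnaseh1* in heart and skeletal muscle, so other cells of the heart keep the gene. The labels give heart tissue as the source, whereas the methods name mitochondria isolated from heart as the material of the small RNA libraries. The value columns per library carry no genotype in their names and were not used here, so each level pools both genotypes, has no error, and the genotypes were not compared. The number of reads behind a level is unknown. *Rnaseh1* itself was listed at 0, so it gave no check of the genotypes. All 10 cardiomyocyte markers had a level of at least 10, led by Ttn at 1809 and Myh6 at 662. The highest level was 20.8 among 6 fibroblast markers, 10.6 among 6 endothelial markers and 6.42 among 5 leukocyte markers. It was 11.8 among 4 erythroid markers. Among 6 skeletal muscle markers, 2 reached a level of 1, namely Ckm at 20.5 and Acta1 at 11.8, and the others were below 1. Ckm is the muscle creatine kinase gene, whose promoter drives Cre in heart as well, so its level is not particular to skeletal muscle. These levels are per gene, not per length. In such bulk material, fewer cells of a type and less RNA per cell cannot be told apart.

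snoRNAs guide the chemical modification of ribosomal RNA. Box C/D snoRNAs (Snord) direct methylation of the ribose by fibrillarin, and box H/ACA snoRNAs (Snora) direct the conversion of uridine to pseudouridine by dyskerin. In mammals most are cut out of spliced introns, many of them in genes for ribosomal proteins or translation factors, so that making the mRNA of a host also makes its guest. A guest is a stable short RNA and can be read whole in a small RNA library. An mRNA of a host is long, and such a library holds only fragments of it.

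The guests of high level were all box C/D snoRNAs. Sequences of some of them are printed to show the boxes that are counted below. They are the transcripts of the GENCODE M21 annotation on GRCm38, written 5′ to 3′ as DNA, with the box C letters TGATGA (or the shorter core TGATG) near the start and the box D letters CTGA near the end in capitals. Snord43 is an exception, in which the marked letters lie farther inside at bases 41 and 91, and in Snord68 only box C is marked. The first 7 are guests of high level in descending order. Snord68, Snord16a and Snord21 were added after their values were seen, as guests listed at 0 inside hosts with many reads.
Snord43: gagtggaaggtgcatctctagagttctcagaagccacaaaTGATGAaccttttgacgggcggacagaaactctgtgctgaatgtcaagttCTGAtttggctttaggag
Snord83b: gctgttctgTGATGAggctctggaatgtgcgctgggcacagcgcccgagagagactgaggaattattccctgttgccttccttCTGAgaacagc
Snord32a: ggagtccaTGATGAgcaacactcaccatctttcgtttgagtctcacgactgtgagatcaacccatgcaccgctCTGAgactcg
Snord4a: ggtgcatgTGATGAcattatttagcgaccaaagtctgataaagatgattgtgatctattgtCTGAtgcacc
Snord42a: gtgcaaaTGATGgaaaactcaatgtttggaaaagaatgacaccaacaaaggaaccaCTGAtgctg
Snord34: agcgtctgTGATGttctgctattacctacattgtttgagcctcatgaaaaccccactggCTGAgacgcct
Snord73a: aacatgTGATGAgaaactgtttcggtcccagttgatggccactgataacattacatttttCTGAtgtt
Snord68: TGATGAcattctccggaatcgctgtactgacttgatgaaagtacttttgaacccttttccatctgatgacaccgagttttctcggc
Snord16a: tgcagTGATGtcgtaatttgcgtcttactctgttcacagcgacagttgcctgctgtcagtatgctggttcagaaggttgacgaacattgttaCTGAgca
Snord21: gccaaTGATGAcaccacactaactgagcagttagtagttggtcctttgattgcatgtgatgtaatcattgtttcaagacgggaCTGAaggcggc

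The boxes were found in members and in guests listed at 0. Of the 13 box C/D members, 12 held TGATG starting in the first 20 bases and 12 held CTGA in the last 15 bases, searched on the RNA strand only. The longer form TGATGA, which contains TGATG, stood there in 6 of the 13. Of the 9 box C/D guests listed at 0, 9 held TGATG, 7 held TGATGA and 8 held CTGA. Among all 99 Snord genes with a sequence, the shares were 87.9% for TGATG, 70.7% for TGATGA and 92.9% for CTGA. Snord43 was the member with neither box in these windows. Its annotated transcript has 108 bases and the table types it as a microRNA, and TGATGA begins at base 41 and the last CTGA at base 91. Snord68 is annotated from the first base of its box C, and CTGA was not among its last 15 bases. The letters ACA stood in the last 8 bases of all 11 box H/ACA guests and of 95.2% of 42 Snora genes.

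Genes of the snoRNA class together made up 78.2% of the total over all features. The levels of the 29 guests described one by one here summed to 15.6% of that total. Rpl3, a large-subunit protein near the peptidyl transferase centre, held Snord43 (chr15:80082847-80082954, intron 1) at 40246 and Snord83b (chr15:80078498-80078591, intron 7) at 31598. Snord32a in Rpl13a (chr7:45127382-45127464, intron 2) stood at 27403, and Snord4a in Rpl23a (chr11:78181686-78181756, intron 2) at 21302. These 4 made up 94.1% of the sum over the 29, so the share of 15.6% is mostly a statement about them. Snord49a, which lies outside ribosomal protein genes, stood above each of the 4, at 81918, a comparison limited to the 29 guests described here. A level of at least 1 was reached by 42.4% of the 33 guests and by 39.8% of the 108 other Snord and Snora genes.

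A middle group of 7 guests lay between 419 and 2331. Rpl23a, another large-subunit protein, held Snord42a in intron 3 (chr11:78181299-78181363) at 2331 and Snord42b in intron 1 (chr11:78183056-78183124) at 886. In Rpl13a, Snord34 (chr7:45126601-45126670, intron 5) stood at 1560 and Snord35a (chr7:45126346-45126435, intron 6) at 500.4. The other guests of this group were the lone named guests of their hosts. Snord73a in Rps3a1 (chr3:86138791-86138858) stood at 1377, Snord58b in Rpl17 (chr18:75001058-75001123) at 494 and Snord72 in Rpl37 (chr15:5118404-5118484) at 419. Per kilobase of gene model, Snord43 was 72-fold above Snord72. The remaining members lay close to the threshold. Snora21 in Rpl23 had a level of 3.33 and was the only box H/ACA member, and Snord15a in Rps3, whose protein also acts in DNA repair, had a level of 1.12. Just outside the threshold were Snora78 inside Rps2 at 0.425 and Snora69 inside Rpl39 at 0.365. Snora78 alone lies on the strand opposite to its host.

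In Rpl13a and Rpl23a, guests of the same host stood at very different levels, although each intron is transcribed once in a full-length transcript of the host. Rpl13a, a large-subunit protein that is also known to repress translation in inflammation, held 4 named guests. Several of them, Snord32a, Snord33 and Snord35a among them, are known from hamster cells for a part in death caused by excess fatty acids. Per kilobase, Snord32a was 59.4-fold above Snord35a, with Snord34 between them. Snord33 in intron 4 was listed at 0, a value that is taken up below with the overlap of exons. In Rpl23a, Snord4a was 23.4-fold above Snord42b per kilobase. The guests of Rpl3 were close together, with Snord43 1.11-fold above Snord83b per kilobase.

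**Figure D1:**
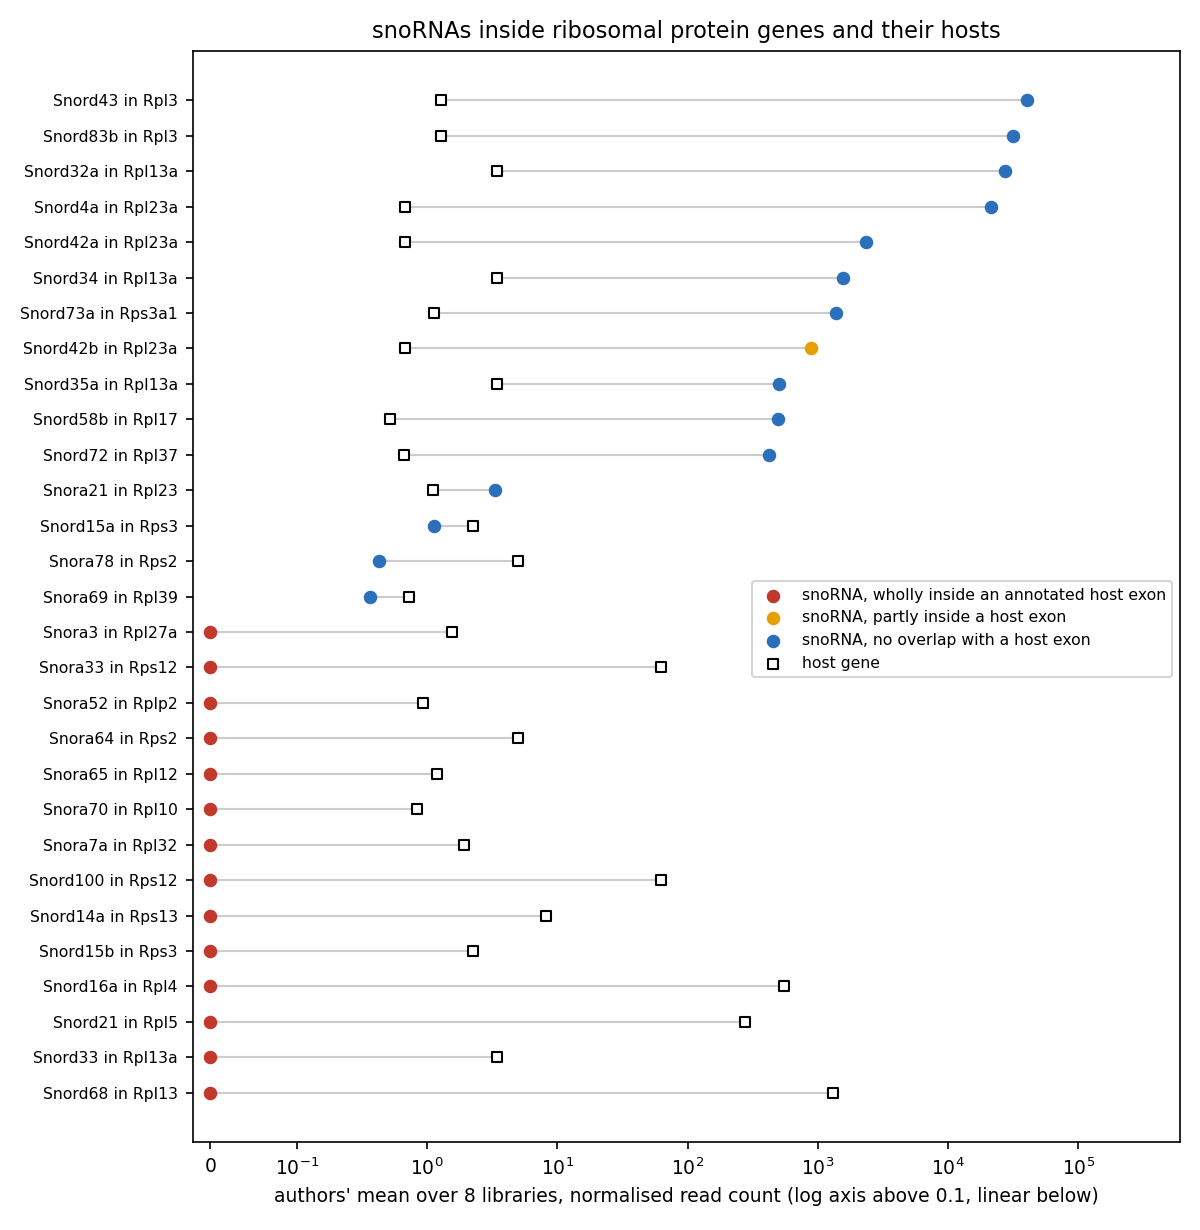
Level (authors' mean over 8 libraries, normalised read count, log axis above 0.1) of 29 guests (filled circles) and of its host (open squares), joined by a line, with guests coloured by overlap with annotated exons of the host. The 14 guests wholly inside a host exon all sit at 0, whereas 12 of the 13 members shown lie to the right of their host.

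Of all 33 guests, 13 had a level above that of their host, and these were 13 of the 14 members. The members were chosen for a level of at least 1, and 5 of them lie in hosts below 1, so these 5 stand above their host by the choice itself. Snora78, Snora69 and the 17 guests at 0 lay below theirs. Per kilobase, 14 of the 14 members were above their host. Snora78 and Snora69, which are not members, were also above theirs on that scale, at ratios of 1.22 and 5.44. The 17 guests at 0 were not. Over the members, the ratio of guest to host per gene had a median of 1266. It ran from 0.494 for Snord15a over Rps3 to 31535 for Snord43 over Rpl3. Per kilobase the median was 18267, and the same pairs were the extremes, at 14.97 and 927074. The hosts of the members had low levels. Rpl13a stood at 3.45, Rps3 at 2.27, Rpl3 at 1.28, Rps3a1 at 1.13 and Rpl23 at 1.12. Rpl23a at 0.676, Rpl37 at 0.666 and Rpl17 at 0.523 fell below the threshold for a host themselves. The ratios have no error, and they set a short RNA against fragments of a long one. Per the methods the material was isolated mitochondria, and the effect of that isolation on the ratios was not tested.

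A further 17 guests were listed at exactly 0. They comprised 9 of 22 box C/D and 8 of 11 box H/ACA guests. Snord68 (chr8:123103038-123103123) was listed at 0 inside Rpl13, a large-subunit protein with a level of 1312. Snord16a (chr9:64175423-64175521) was listed at 0 inside Rpl4 at 553, and Snord21 (chr5:107904555-107904648) inside Rpl5 at 277, the partner of the 5S rRNA in the large subunit. Rps12, at 62.3, held Snora33 and Snord100, both listed at 0. Others were Snord14a in Rps13 (8.24), Snord33 in Rpl13a, Snord15b in Rps3, Snora64 in Rps2 (4.97), Snora7a in Rpl32 (1.91), Snora3 in Rpl27a (1.56), Snora65 in Rpl12 (1.19), Snora52 in Rplp2 (0.928) and Snora70 in Rpl10 (0.834). No guest took a value between 0 and 0.365.

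The guests at 0 shared a feature of the annotation that the choice of members did not use. In GENCODE M21, 17 of the 33 guests lie wholly inside an exon of some transcript of their host on the same strand. All 17 were listed at 0, and none of the 16 other guests was. In 16 of the 17 such a transcript was of the retained-intron type, which keeps the intron as part of an exon, and for Snora7a it was a protein-coding transcript of Rpl32. For 12 of the 17, a single transcript covered the guest. In Rpl13a, which has 19 annotated transcripts, Snord33 was inside exons of 2 of them, whereas Snord32a, Snord34 and Snord35a overlapped none. Snord42b was the only guest that overlapped a host exon in part, and it had a level of 886.

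The methods state that reads were counted per gene by strand, and they name no option for a read that overlaps exons of more than 1 gene. featureCounts by default assigns such a read to no gene. Reads that match a covered guest would lie in exons of both genes. A level of 0 here therefore does not show that the snoRNA was missing from the heart, and the part of the counting in these values was not tested.

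The same split was present outside ribosomal protein genes. Of the 108 other Snord and Snora genes, 39 lay wholly inside an exon of another gene on the same strand, and all 39 were listed at 0. Of 57 with no such overlap, 5 were listed at 0, and of 12 with partial overlap, 4 were. Over all 1508 genes of the snoRNA class, 154 lay wholly inside such an exon and 154 were at 0, against 1073 of 1294 (82.9%) without overlap. The high share at 0 among the latter includes many predicted genes. Of 14 genes of the class that lay wholly inside an exon on the opposite strand with none on their own, 9 (64.3%) were at 0. Of the 3 Snord or Snora genes among them, 0 were at 0, and they included Snord4a and Snord42a of Rpl23a.

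**Figure D2:**
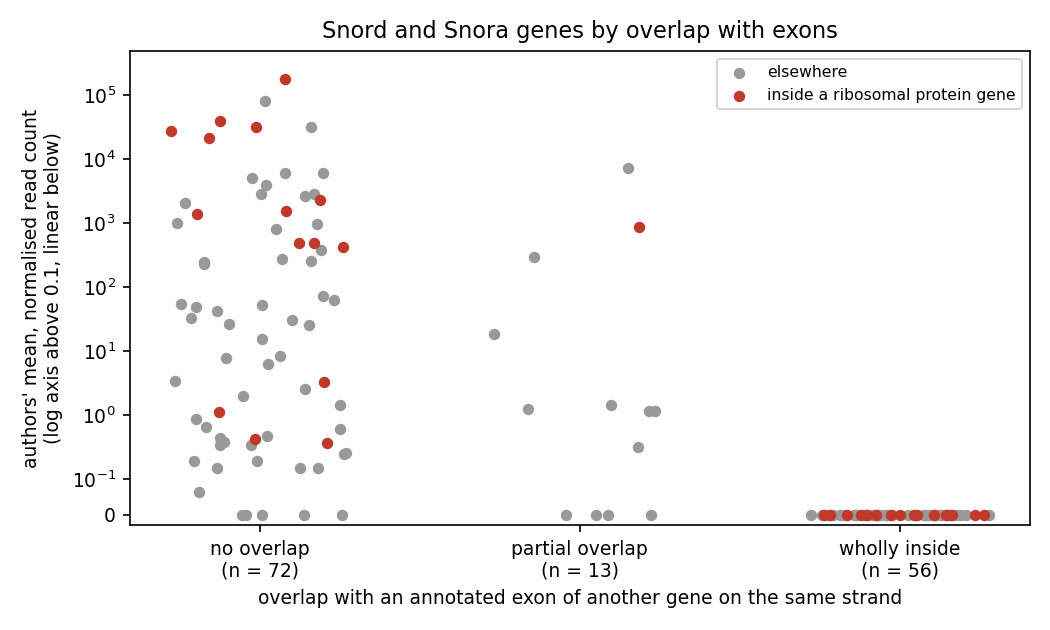
Level (authors' mean, normalised read count, log axis above 0.1) of the 141 Snord and Snora genes, grouped by overlap with an annotated exon of another gene on the same strand, with genes inside ribosomal protein genes in red and others in grey. All 56 genes wholly inside an exon sit at 0, and 67 of the 72 without overlap lie above 0.

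Of the 86 ribosomal protein genes, 34 had a level of at least 1, against 3870 of all 54531 features. The 34 hosts, chosen for that level, had a median of 1.97, and 28 of them lay between 1 and 10. The 86 genes together made up 0.657% of the total over all features. By its name they include Rps19bp1 at 0.193, which encodes a partner of a ribosomal protein and not a ribosomal protein. Members just inside and just outside the threshold were Rpl10-ps3 at 1.04 and Rpl22 at 0.990. Rpl10-ps3 was 1 of 8 genes with a pseudogene name that the table types as protein-coding, and the only one of them among the hosts. Reads of ribosomal protein mRNAs can also match processed pseudogenes. Of 281 pseudogenes named for ribosomal proteins, 10 had a level of at least 1, with a highest level of 2.54. Reads could have been divided between a gene and such copies, so low levels of single hosts are uncertain.

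The 6 ribosomal protein genes with a level of at least 10 all contained a snoRNA gene wholly inside one of their own exons. They were Rpl7a at 3078 (1728 per kilobase), Rpl13 at 1312 (506), Rpl4 at 553 (276), Rpl5 at 277 (70.7), Rps12 at 62.3 (30.7) and Rpl21 at 34.6 (10.2). Rps13 at 8.24 and Rps2 at 4.97 also held a covered snoRNA, and Rplp0, a protein of the ribosomal stalk, stood at 3.67. With predicted genes counted as well, 22 of the 86 held a snoRNA gene wholly inside an exon, and 6 of the 22 reached a level of 10. Of the 64 others, 0 did, and their highest level was 3.67. The 7 genes that held snoRNA genes with none wholly inside an exon had a median of 0.676, against 0.535 for 57 genes with no snoRNA gene on their strand and 2.21 for the 22. Per kilobase the medians were 0.511, 0.273 and 1.43 in that order. Whether reads counted for these hosts came from their mRNA or from guest sequences was not tested.

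**Figure D3:**
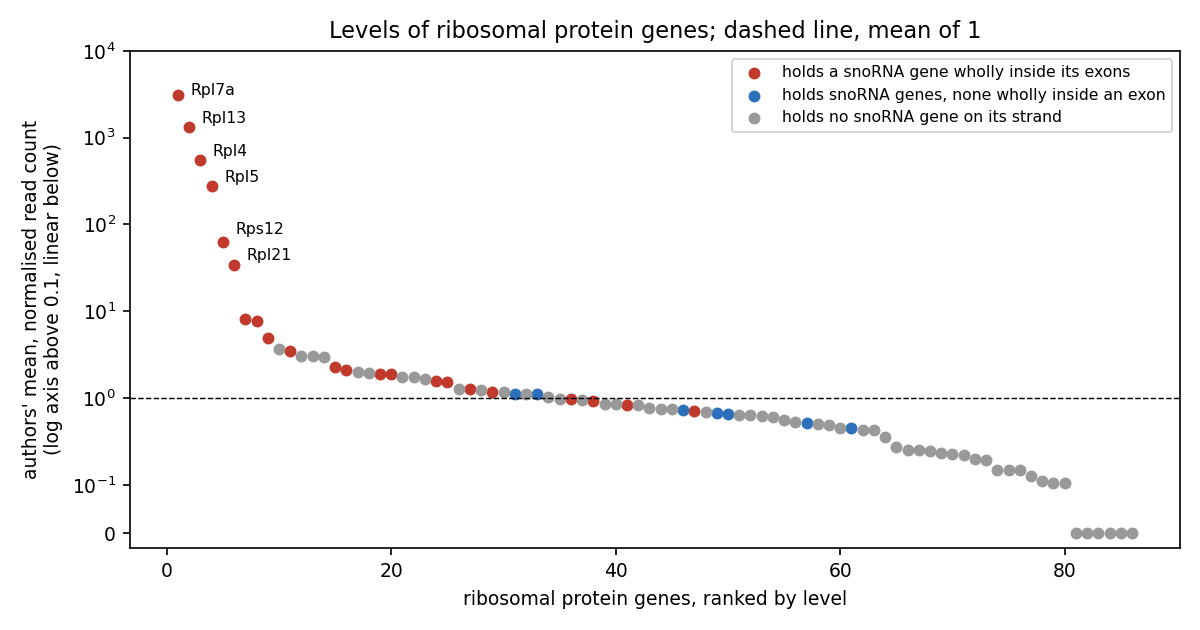
Level (authors' mean, normalised read count, log axis above 0.1) of the 86 ribosomal protein genes ranked from highest to lowest, coloured by whether a snoRNA gene on the same strand lies wholly inside an exon of the gene. The 6 genes above 10, from Rpl7a at 3078 to Rpl21 at 34.6, belong to the 22 genes with such a snoRNA, and the dashed line marks the threshold of 1.

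The ribosomal protein genes held 24 further genes of the snoRNA class with other names, most of them predicted. They followed the same division, with 9 of 9 wholly covered genes at 0 and 2 of 15 others at 0. The highest were Gm23344 in Rpl4 at 52099 and Gm26202 in Rpl17 at 51815. Rpl4 thus stood at 553 and held both Gm23344, clear of its exons, and Snord16a, listed at 0 inside a retained-intron transcript. Rpl7a, the host of highest level, held Gm23969 at 1825 and the covered genes Gm22879 and Gm24134 at 0.

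Among box C/D guests, those at 0 and those with reads overlapped in their distance to the next exon and to the exon before. Distances were taken in the principal protein-coding transcript of the host, in which 32 of the 33 guests lay inside an intron. The 13 box C/D members ended a median of 84 bases before the next exon, with a range from 63 to 264. The 9 box C/D guests at 0 ended a median of 69 bases before it, with a range from 59 to 92. The longest of these distances were those of Snord43 at 264 bases and Snord73a at 198 bases. The distance from the exon before had a median of 209 bases (31 to 1046) for the members and 78 bases (43 to 686) for the guests at 0. Introns had a median length of 447 bases for the members and 224 bases for the guests at 0, and the ranges, 171 to 1209 and 196 to 848, overlapped. Transcript lengths ran from 65 to 148 bases and from 71 to 145 bases in these groups. The 8 box H/ACA guests at 0 ended 49 to 2064 bases before the next exon, and Snora21, the member of that class, 176 bases before it.

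**Figure D4:**
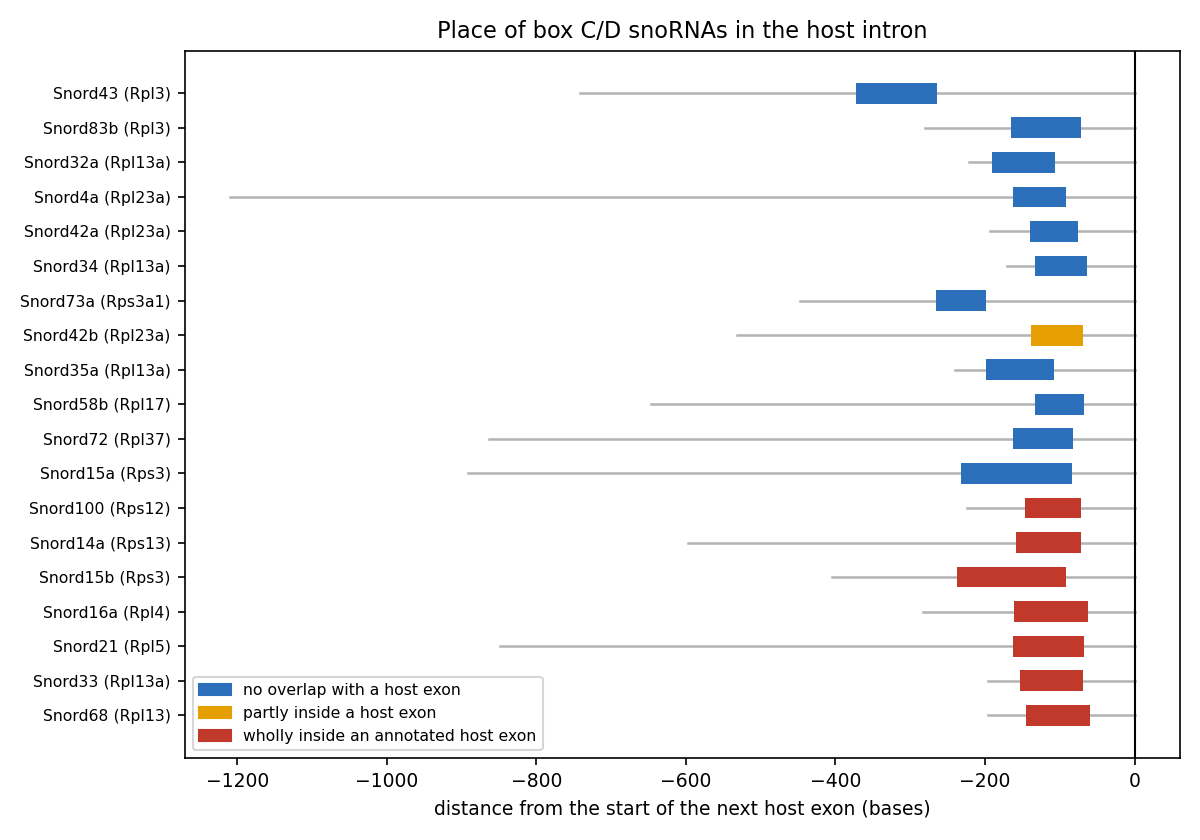
Place of 19 box C/D guests in their host intron (grey line), aligned at the start of the next exon, in bases, with bars coloured by overlap with annotated exons of the host and ordered by level from the top. Most bars end between 59 and 108 bases before the next exon, and Snord43 and Snord73a lie farther away.

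Another snoRNA gene of at least 80% identity over the full length was found for 2 of the 14 members and for 7 of the 17 guests at 0. Snord58b was 84.8% identical to Gm23301, a neighbour in Rpl17 at 11042, and 94.3% identical to Gm22354 at 0.260. Snora21 was 97.8% identical to Gm23795, listed at 0. Snord42a and Snord42b were less alike, at 68.1%. The near copies of the 7 guests at 0 had low levels themselves, the highest being Gm23136 at 1.57, a copy of Snord16a. An aligner that reports a single place for a read can divide reads between near-identical copies. Whether this changed the levels of Snord58b, Snora21 or the 7 guests was not tested.

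Among other genes of translation, the factors had a higher median than the ribosomal protein genes, and the snoRNA particle and mitochondrial ribosomal proteins a lower one. Of 16 elongation and initiation factors and related genes, 13 had a level of at least 1 and the median was 4.69. The highest was Rack1, a scaffold on the small subunit, at 603, followed by Eef2, the factor that moves the ribosome along the mRNA, at 25.8. The 11 proteins of snoRNA particles had a median of 0.627, and 2 reached a level of 1, namely Nop56 of box C/D particles at 105 and nucleolin (Ncl) at 5.24. Fibrillarin (Fbl) stood at 0.663 and dyskerin (Dkc1) at 0.516. Of 78 genes for mitochondrial ribosomal proteins, 15 had a level of at least 1, with a highest level of 4.12 for Mrpl51. The median was 0.495, against 0.771 for the 86 cytosolic ribosomal protein genes. These values describe pooled levels per gene, not per length. Whether reads counted for Rack1, Nop56 or Ncl came from their mRNA or from any snoRNA sequences inside them was not tested.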

How the data were processed

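Per the labels and the methods, small RNA reads were placed on mm10 by Bowtie2 (2.3.4.1, defaults), counted per gene by strand (-s 1) by featureCounts (1.6.3) against GRCm38 gene models of Ensembl (release 94) plus a mitochondrial annotation, and scaled and compared by DESeq2 (1.18.1, under R 3.5.1). The authors deposited a signal for each feature, the mean over all libraries of read counts divided by size factors, and it was the only value used. Fold changes, standard errors and p-values of the authors' comparison were not used. Nor were 8 value columns per library. Columns were assigned to samples by name only, and these names show no genotype, so by that choice the planned genotype tests were not made.

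Of 54531 features, 54458 were matched by gene ID to GENCODE M21 (GRCm38), and 98.3% of these had the same start and end. Exon overlap, introns, sequences and boxes came from that annotation, a later release than the authors', in Python version 3.11.15 with pandas version 2.3.3, and functions were tested on simulated data. Per kilobase means per 1000 bases of merged exons of a gene. Names ending in l and digits after the number of the protein (Rpl22l1) were left out. Named were guests with a level of at least 10, their hosts and the 10 ribosomal protein genes of highest level, and other guests were named after their values were seen. Some hosts with their guests are not reported here, though counts and medians over all members include them. Members and lists were chosen with earlier results of these data known.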

Additional observations from a re-analysis of the deposited data

How the results depend on the processing

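The values have no error over libraries, and the depth is unknown. With a minimum level of 10, 6 hosts and 12 guests remained, against 34 hosts and 14 guests at a minimum of 1. None of the 12 guests lies in one of the 6 hosts. The median ratio per gene, of each guest to its own host at any level, was 2380 over the 12 guests and 1266 over the 14. Per kilobase of gene model the median ratio over the 14 guests was 18267. Read letter by letter, the name rule also drops plain names such as Rpl13 and leaves 21 hosts and 9 guests, a reading chosen after seeing the data. Of 11 alternatives in all, 6 stayed within 1.5 times the value reported. Among these, requiring the strand of the host kept 14 guests. Exons of any gene gave 17 covered guests and any overlap gave 18, both chosen after seeing the data. No paired analysis was possible because columns were assigned to samples by name only, and column names here show neither genotype nor replicate number. Those columns were not used in any step, so alternatives of pseudocount, scaling, left-out replicates and count tests were not run.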
